A study of Mus musculus with 10 samples.

Results

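The BCL-2 family genes followed here are 10 genes that set whether a T cell survives or dies through its mitochondria, chosen by name: *Bcl2*, *Bcl2l1* and *Mcl1*, whose proteins protect the cell, *Bcl2l11*, *Bid*, *Bad*, *Pmaip1* and *Bbc3*, whose BH3-only proteins start death, and *Bax* and *Bak1*, whose proteins carry it out. A probe set of its own was named for 9 of the 10, among 18193 genes in all. *Bax* is not analysed here, because no probe set carries its symbol alone in the annotation used. More than 1 probe set was listed for 7 of the 9.

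RNA was measured on 10 Affymetrix mouse genome arrays, 2 for each of 5 groups of mouse T cells. Naïve CD4+ and naïve CD8+ T cells (TCRβ+ CD62L+ CD44-) were sorted from spleens of wild-type C57BL/6 mice, whose age is not given in the sources used here. CD4+ TEM and CD8+ TEM cells were effector cells purified on day 25, after naïve cells of either subset had been kept in separate cultures with IL-2 and with B lymphoma cells that carry LMP1 and LMP2A, which had been γ-irradiated and were given anew every week. CD4+ memory cells, also of day 25, carry labels that derive them from naïve CD4+ T cells and the letters CM in their titles. The study uses central memory for CD62L+ CD44+ cells of these cultures, but how the cells of these 2 arrays were sorted is not given in the sources used here. The lymphoma lines came from B cells of GCB-LMP1/2 mice, in which Cγ1-Cre switches on both EBV proteins in germinal center B cells, after passage through Rag2-/- or Rag2-/- γC-/- recipients. In both TEM groups the lymphoma cells, the cytokine and the time in culture cannot be told apart from the change of cell state, and whether the memory cells had the same culture is not stated. The labels also give each array a *Foxo1* status, which differs between the 2 arrays of CD4+ memory and of CD8+ TEM cells and is not mentioned in the study's account of these wild-type cells. It was not used, and its part in the results, those of *Foxo1* included, was not tested. Whether the 2 arrays of a group came from separate animals is not stated, so a p-value here weighs a difference against the spread of array pairs, which may be technical alone.

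In a healthy cell the protective proteins of the BCL-2 family hold the BH3-only proteins and the pore formers BAX and BAK in check at the outer mitochondrial membrane. When BH3-only proteins outnumber them, BAX and BAK open the membrane, cytochrome c escapes and caspases are switched on. Naïve T cells are known to depend on BCL-2 and MCL1, activated T cells to gain BCL-XL, and the removal of T cells after a response to depend largely on BIM, the product of *Bcl2l11*.

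Some features of the arrays bear on all values below. The 6 T cell markers measured averaged 11.29 to 12.15 on the log2 scale on every array. Of 10 B cell markers 9 were measured, and their mean was 3.81 to 5.67 on the naïve and 5.98 to 7.09 on the cultured arrays. *Ebf1* reached 10.19 to 10.82 in culture against 2.93 to 5.56 in naïve cells. *Vpreb3* (7.90 to 9.56 against 4.67 to 5.28) and *Blnk* (4.77 to 7.03 against 2.34 to 3.75) were higher in culture too. *Pax5* stayed between 3.58 and 4.33 and *Fcer2a* between 3.79 and 4.65 throughout. The naïve and cultured ranges of *Cd79a*, *Cd79b*, *Ms4a1* and *Cd22* overlapped, although *Cd79b* rose by 4.24 in CD4+ TEM cells. Of 7 myeloid markers, whose mean was 4.02 to 5.11 on all arrays, *Cd68* rose by 2.72 and *Adgre1* by 3.30 in CD4+ TEM cells. The others differed there by -0.94 (*Lyz2*), -0.62 (*Fcgr3*), -0.21 (*Itgam*), -0.05 (*Cd14*) and 0.15 (*Csf1r*), each at an adjusted p above 0.05. In CD8+ TEM cells *Cd68* (adjusted p = 0.0172) and *Cd14* (1.42, adjusted p = 0.000604) rose by limma. *Lyz2* differed there by -2.52, *Adgre1* by 2.04, *Fcgr3* by 0.37, *Csf1r* by -0.16 and *Itgam* by -0.07, each above 0.05. The part of these markers in the results was not tested. *Cd8a* read 7.67 and 8.17 in CD4+ TEM cells against 3.93 to 5.38 in naïve CD4+ and memory cells, while *Cd8b1* read 4.94 to 5.63 in all of these. *Cd4* read 6.51 and 6.89 in CD8+ TEM against 4.30 and 4.10 in naïve CD8+ cells. The *Gapdh* control probe sets read higher at the 3′ than at the 5′ end, by 2.42 to 2.75 on naïve and 0.91 to 1.72 on cultured arrays (log2). Naïve CD8+ replicate 2 stood apart from replicate 1, with a B cell marker mean of 5.67 against 4.36 and *Lyz2*, a myeloid gene, at 8.70, and results on members that use this pair are also given without that array. The part of these features in the results was not tested. In bulk samples, fewer cells of a type and less RNA per cell cannot be told apart.

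The members *Mcl1*, *Bcl2l11* and *Bid* were lower in both TEM groups than in the naïve cells of the same subset. RefSeq windows at their starts are printed here for this shared direction alone. In CD4+ memory cells they did not move alike, since *Mcl1* and *Bid* were lower than in naïve cells and *Bcl2l11* differed by 0.18. Whether the 3 share any control was not tested. Each window holds 250 bases before and 50 after an annotated start in build GRCm38.p6. Capitals mark the FOXO motif GTAAACA, searched on both strands.
*Bcl2l11*, first of 2 starts, chr2:128125788-128126087, plus strand: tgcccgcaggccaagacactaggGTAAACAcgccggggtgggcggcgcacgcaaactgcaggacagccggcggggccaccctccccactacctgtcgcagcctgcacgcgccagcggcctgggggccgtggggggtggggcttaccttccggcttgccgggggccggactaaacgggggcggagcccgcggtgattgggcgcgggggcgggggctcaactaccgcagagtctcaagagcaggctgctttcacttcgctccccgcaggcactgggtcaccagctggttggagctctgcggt
*Mcl1*, chr3:95658471-95658770, plus strand: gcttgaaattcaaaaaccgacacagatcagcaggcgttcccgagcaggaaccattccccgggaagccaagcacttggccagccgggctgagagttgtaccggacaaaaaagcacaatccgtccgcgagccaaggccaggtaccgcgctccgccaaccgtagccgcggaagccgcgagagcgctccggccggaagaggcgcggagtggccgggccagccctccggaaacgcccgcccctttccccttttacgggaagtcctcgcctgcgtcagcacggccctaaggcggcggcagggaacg
*Bid*, chr6:120916775-120917074, minus strand: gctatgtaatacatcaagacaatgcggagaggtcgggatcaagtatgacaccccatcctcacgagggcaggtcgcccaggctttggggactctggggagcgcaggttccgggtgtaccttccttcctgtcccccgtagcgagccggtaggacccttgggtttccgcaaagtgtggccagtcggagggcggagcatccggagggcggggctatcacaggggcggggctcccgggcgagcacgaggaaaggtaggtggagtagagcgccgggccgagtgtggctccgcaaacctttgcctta
The motif lay at -227 from the first *Bcl2l11* start and was found in neither the *Mcl1* nor the *Bid* window. The window of the other *Bcl2l11* start, which is not printed, did not hold it either. It was held by 1199 of 32851 RefSeq windows of this length, or 3.65%. The STAT motif TTCNNNGAA, the AP-1 motif TGANTCA and the kappaB motif GGANTTTCC were in no window of any member, against 8.3%, 7.81% and 1.25% of all windows. The E-box CACGTG was held by 1 of 3 *Bbc3* windows and, in 2 copies, by that of *Bax*, against 7.15% of all windows. Another *Bbc3* window held the FOXO motif at -167. A match is only a match of letters, and no window was listed for *Pmaip1*.

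The first comparison asks how the members changed as naïve CD4+ T cells became CD4+ TEM cells. *Pmaip1*, *Bcl2l1*, *Bak1* and *Bcl2* rose, and *Bid*, *Bcl2l11* and *Mcl1* fell. The change was 17.7-fold for *Pmaip1* and 1.48-fold to 2.83-fold for the other 6. Thus 7 of 9 members were called by limma at an adjusted p under 0.05, against 26.5% of all genes tested. In CD8+ T cells the same comparison again called 7 of 9, against 38.1% of all genes, with *Bcl2l1*, *Pmaip1*, *Bak1* and *Bad* higher and *Mcl1*, *Bcl2l11* and *Bid* lower. In both subsets 6 members were called in the same direction, 3 higher and 3 lower. *Bcl2* was called in CD4+ cells alone, *Bad* in CD8+ cells alone and *Bbc3* in neither. The median change over the 9 members was 0.31 in CD4+ and 0.44 in CD8+ cells, beside 0.02 and 0.06 over all genes. Without naïve CD8+ replicate 2 the CD8+ median was 0.48.

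**Figure D1:**
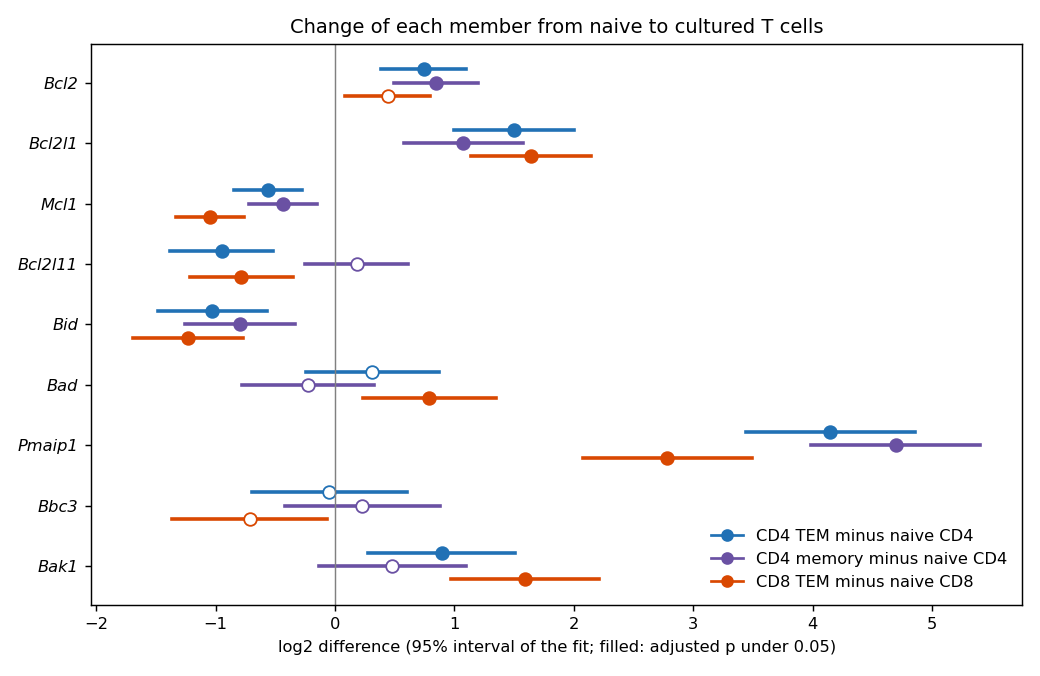
Log2 difference of each of the 9 measured members between cultured and naïve T cells (x axis), for CD4+ TEM (blue), CD4+ memory (purple) and CD8+ TEM cells (orange); bars are 95% intervals of the limma fit and filled points have an adjusted p under 0.05. *Pmaip1* lies farthest to the right, at 4.15, 4.70 and 2.78, while *Mcl1* and *Bid* lie left of 0 in all 3 and *Bcl2l11* only in the TEM comparisons.

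Among the protective genes, *Bcl2l1*, which encodes BCL-XL, rose in each cultured group. It read 7.07 and 6.63 in naïve CD4+ cells, 8.44 and 8.27 in CD4+ TEM cells and 8.18 and 7.68 in CD4+ memory cells on the log2 scale. The naïve CD8+ arrays read 6.32 and 6.54 and the CD8+ TEM arrays 8.08 and 8.07. Every cultured array was above every naïve array. The log2 difference was 1.50 ± 0.22 (SE, adjusted p = 0.00136) for CD4+ TEM, 1.64 ± 0.22 (adjusted p = 0.000496) for CD8+ TEM and 1.08 ± 0.22 (adjusted p = 0.00882) for memory cells. The CD8+ value was 1.76 without naïve CD8+ replicate 2 (adjusted p = 0.00257). The memory call was lost without naïve CD4+ replicate 2, at 0.86 with an adjusted p of 0.0656, within a range of 0.00408 to 0.0751 over the alternatives. The other 3 *Bcl2l1* probe sets were dim, with every group mean under 5, and 2 of these were also called in CD8+ TEM cells but none in CD4+ TEM or memory cells. The mean over all 4 sets gave 0.59 for CD4+ TEM (adjusted p = 0.00768), 0.91 for CD8+ TEM (adjusted p = 0.000481) and 0.35 for memory cells (adjusted p = 0.0751).

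*Bcl2*, which encodes the founding protective protein, was higher after culture in both subsets. It read 11.68 and 11.43 in naïve CD4+ cells, 12.26 and 12.33 in CD4+ TEM cells and 12.54 and 12.26 in memory cells. The naïve CD8+ arrays read 11.32 and 11.40 and the CD8+ TEM arrays 11.83 and 11.77. Within each subset the cultured arrays were all above the naïve ones, whereas CD4+ TEM and memory arrays overlapped. *Bcl2* rose by 0.74 ± 0.15 (adjusted p = 0.00816) in CD4+ TEM and by 0.85 ± 0.15 (adjusted p = 0.0053) in memory cells. Without naïve CD4+ replicate 2 the TEM value was 0.62 (adjusted p = 0.0635), with the variation filter, which takes another probe set, it was 0.46 (adjusted p = 0.0743), and the range over the alternatives was 0.000676 to 0.0743. In CD8+ TEM cells the difference of 0.44 ± 0.15 missed the threshold (adjusted p = 0.0536), and 7 of 20 alternatives, 2 of them without a CD4+ memory array, put it below, in a range from 0.00117 to 0.199. Leaving out naïve CD8+ replicate 2 gave 0.48 (adjusted p = 0.0958). When each probe set was tested as a feature, all 5 *Bcl2* sets were higher in both TEM comparisons, by 0.46 to 0.92 in CD4+ and by 0.41 to 1.11 in CD8+ cells, with 3 called in each. The same 5 were all called in memory cells, by 0.68 to 1.54.

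*Mcl1*, which encodes a short-lived protective protein, moved the other way. Its log2 values were 12.91 and 12.92 in naïve CD4+ cells, 12.34 and 12.36 in CD4+ TEM and 12.53 and 12.43 in memory cells. In CD8+ cells they went from 12.79 and 12.68 to 11.71 and 11.67. No array of a cultured group reached any naïve array, and the CD8+ TEM arrays were the lowest of the 10. *Mcl1* fell by 0.56 on the log2 scale in CD4+ TEM cells (SE 0.12, adjusted p = 0.0106) and by 1.04 in CD8+ TEM cells (SE 0.12, adjusted p = 0.000265). The CD8+ fall was -1.10 when naïve CD8+ replicate 2 was left out (adjusted p = 0.00113). The CD4+ call was lost when either naïve CD4+ or either CD4+ TEM array was left out, with adjusted p from 0.0502 to 0.0569, in a range of 0.000112 to 0.0569 over all alternatives. All 6 *Mcl1* probe sets were lower in both TEM comparisons, and 5 were called in each. In memory cells *Mcl1* fell by 0.44 (SE 0.12, adjusted p = 0.0366). That call was lost without any one array of the naïve CD4+, CD4+ TEM, CD4+ memory or CD8+ TEM pairs, at adjusted p of 0.0551 to 0.133, in a range of 0.000768 to 0.138.

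**Figure D2:**
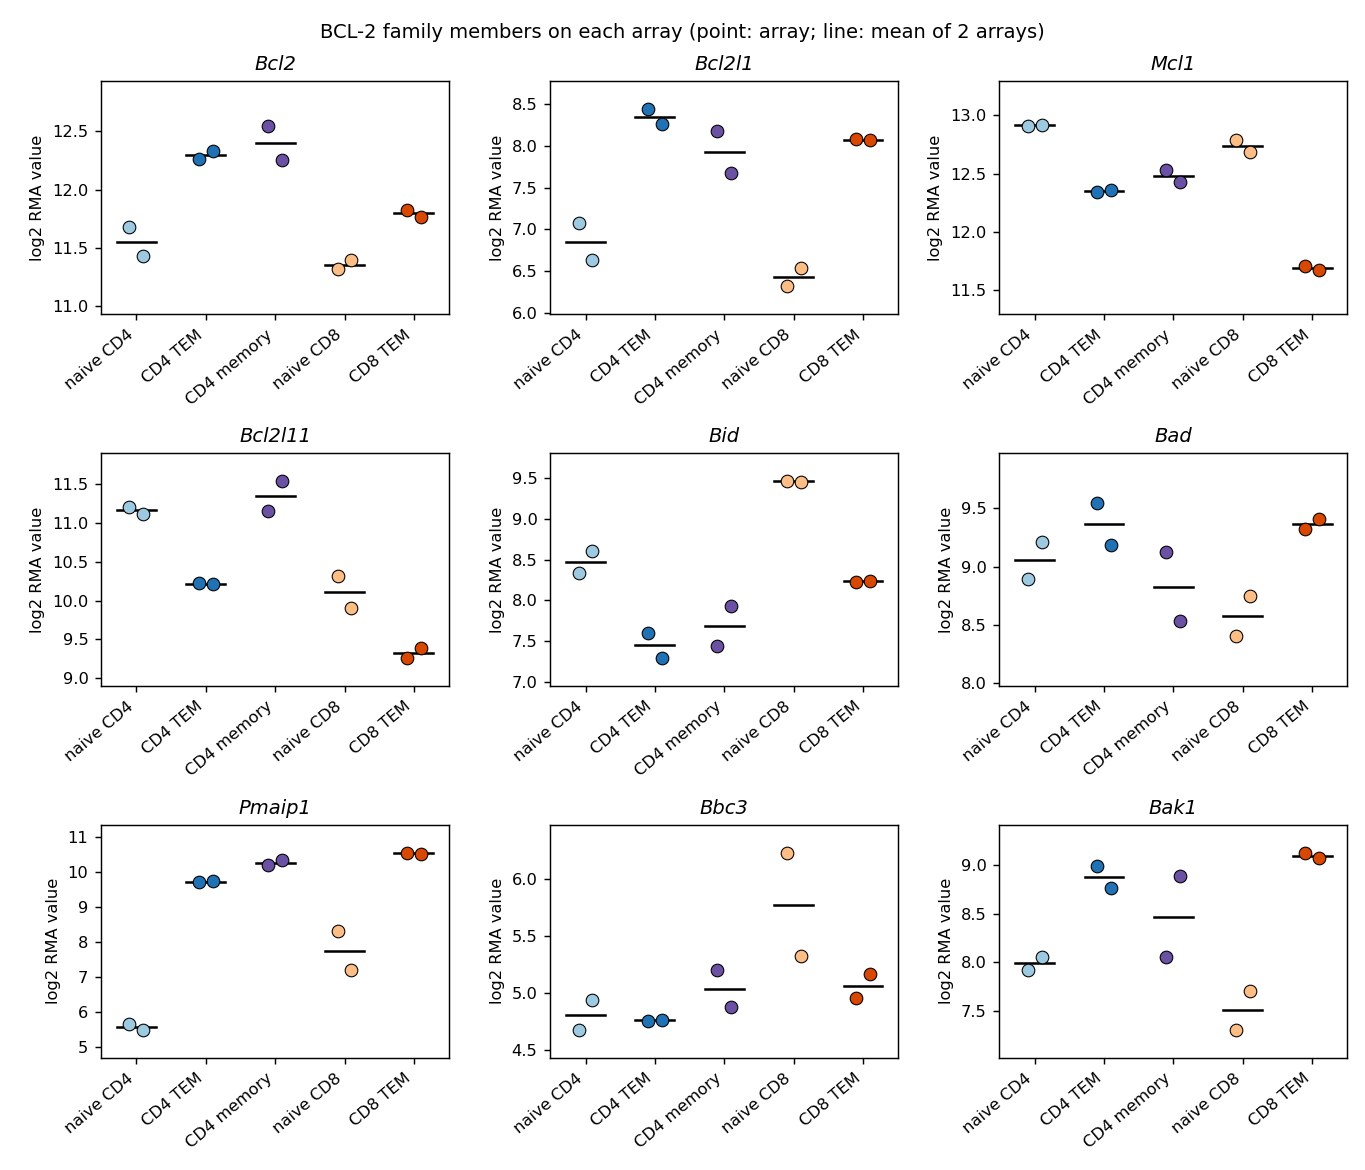
Log2 RMA value (y axis, a separate scale in each panel that does not start at 0) of each measured member on the 10 arrays, by group; points are arrays and lines the mean of 2. *Bcl2l11* in CD4+ memory cells, at 11.16 and 11.54, lies with naïve CD4+ cells and above CD4+ TEM cells, at 10.22 and 10.21, and the naïve CD8+ arrays are 8.30 and 7.19 for *Pmaip1*.

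Of the BH3-only genes, *Pmaip1*, which encodes NOXA, a binder of MCL1, had the widest span. It read 5.64 and 5.49 in naïve CD4+ cells, 9.70 and 9.73 in CD4+ TEM and 10.19 and 10.34 in memory cells. The naïve CD8+ arrays read 8.30 and 7.19, and the CD8+ TEM arrays 10.54 and 10.52. The naïve CD4+ pair was the lowest, the naïve CD8+ pair came next with replicates over 1 log2 unit apart, and the 3 cultured pairs did not overlap. *Pmaip1* rose by 4.15 ± 0.31 (adjusted p = 3.57e-05) in CD4+ TEM, 4.70 ± 0.31 (adjusted p = 2.64e-05) in memory and 2.78 ± 0.31 (adjusted p = 0.000189) in CD8+ TEM cells. Its calls in these 3 comparisons held under all 20 alternatives of each. The CD8+ rise was 2.23 without naïve CD8+ replicate 2 and 3.34 without replicate 1. A single probe set measured the gene.

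*Bcl2l11*, which encodes BIM, separated the cultured CD4+ groups. Its log2 values were 11.21 and 11.12 in naïve CD4+ cells, 10.22 and 10.21 in CD4+ TEM and 11.16 and 11.54 in memory cells. In CD8+ cells they were 10.31 and 9.90 before and 9.26 and 9.39 after culture. Memory arrays overlapped the naïve CD4+ arrays, and both TEM pairs lay below their naïve cells. *Bcl2l11* fell by 0.95 (SE 0.19, adjusted p = 0.00655) in CD4+ TEM and by 0.78 (SE 0.19, adjusted p = 0.0107) in CD8+ TEM cells, and the memory value of 0.18 ± 0.19 was not called (adjusted p = 0.559). The CD8+ call was lost without naïve CD8+ replicate 1 (-0.58, adjusted p = 0.0624) or CD8+ TEM replicate 1 (-0.72, adjusted p = 0.0695), in a range of 0.00386 to 0.0695, and held without naïve CD8+ replicate 2. Of 5 probe sets, all were lower in CD4+ TEM and 4 in CD8+ TEM cells, with 3 called in each. The exception was the dimmest set, at 4.14 in CD8+ TEM cells.

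*Bid*, whose protein links death receptors to mitochondria once caspase-8 has cut it, fell in all 3 cultured groups. It read 8.34 and 8.61 in naïve CD4+, 7.60 and 7.29 in CD4+ TEM and 7.43 and 7.92 in memory cells. The naïve CD8+ arrays, at 9.46 and 9.46, were the highest, and the CD8+ TEM arrays read 8.22 and 8.24. In either subset every cultured array was below every naïve one. *Bid* fell by 1.03 (SE 0.20, adjusted p = 0.00609) in CD4+ TEM, by 1.23 (SE 0.20, adjusted p = 0.00147) in CD8+ TEM and by 0.80 (SE 0.20, adjusted p = 0.0225) in memory cells. The CD8+ value was also -1.23 without naïve CD8+ replicate 2 (adjusted p = 0.00923). Without naïve CD4+ replicate 2 the CD4+ TEM value was -0.89 (adjusted p = 0.0505, in a range of 0.00282 to 0.0505) and the memory value -0.66 (adjusted p = 0.135). The memory call was also lost without memory replicate 1 (-0.55, adjusted p = 0.093), in a range of 0.00929 to 0.136. The other *Bid* probe sets were dim, with group means under 6. As separate features, 1 of them changed by -0.81 in CD4+ TEM, -0.73 in memory and -0.33 in CD8+ TEM cells. It was called in the CD4+ comparisons only. The dimmest set differed by 0.09, 0.49 and -0.50 in the same order and was not called.

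*Bad*, whose protein is held inactive by growth factor kinases, read 8.90 and 9.21 in naïve CD4+, 9.55 and 9.19 in CD4+ TEM and 9.12 and 8.53 in memory cells. The CD4+ groups overlapped. In CD8+ cells it rose from 8.40 and 8.75 to 9.33 and 9.41, by 0.79 ± 0.24 (adjusted p = 0.0316). That call was lost without naïve CD8+ replicate 1 (0.62, adjusted p = 0.165), CD8+ TEM replicate 1 (0.83, adjusted p = 0.0988) or CD8+ TEM replicate 2 (0.75, adjusted p = 0.134), in a range of 0.00294 to 0.165, and held without naïve CD8+ replicate 2. The second *Bad* probe set was higher by 0.62 (adjusted p = 0.0471) in CD4+ and by 1.08 (adjusted p = 0.00278) in CD8+ TEM cells.

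*Bbc3*, which encodes PUMA, a target of p53, was dim, with all 5 group means below 6. It read 4.68 and 4.94 in naïve CD4+ and 4.76 and 4.77 in CD4+ TEM cells. The naïve CD8+ arrays read 6.23 and 5.33 and the CD8+ TEM arrays 4.96 and 5.17. Replicate 1 of naïve CD8+ cells was the highest of the 10 arrays. The CD8+ difference of -0.71 ± 0.28 was not called (adjusted p = 0.0826), but without naïve CD8+ replicate 2 it was -1.17 (adjusted p = 0.0048), in a range of 0.0048 to 0.418. Of the other comparisons, *Bbc3* was called only between the naïve subsets.

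*Bak1*, the pore-forming effector measured here, read 7.91 and 8.06 in naïve CD4+, 8.99 and 8.77 in CD4+ TEM and 8.05 and 8.88 in memory cells. The CD8+ values went from 7.30 and 7.70 to 9.12 and 9.07. Both TEM pairs were above their naïve cells, and 1 memory array lay with each of the other CD4+ groups. *Bak1* rose by 1.59 ± 0.27 in CD8+ TEM cells (adjusted p = 0.0018), was called under all 20 alternatives and differed by 1.79 without naïve CD8+ replicate 2. The CD4+ TEM rise of 0.89 ± 0.27 (adjusted p = 0.0416) was lost without any one array of the naïve CD4+, CD4+ TEM or CD8+ TEM pairs, at 0.0697 to 0.183, and with the mean of both probe sets, at 0.21, the highest of a range from 0.00754. Without memory replicate 1 the memory value of 0.48 (adjusted p = 0.253) became 0.90 (adjusted p = 0.0241, in a range of 0.0241 to 0.883).

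**Figure D3:**
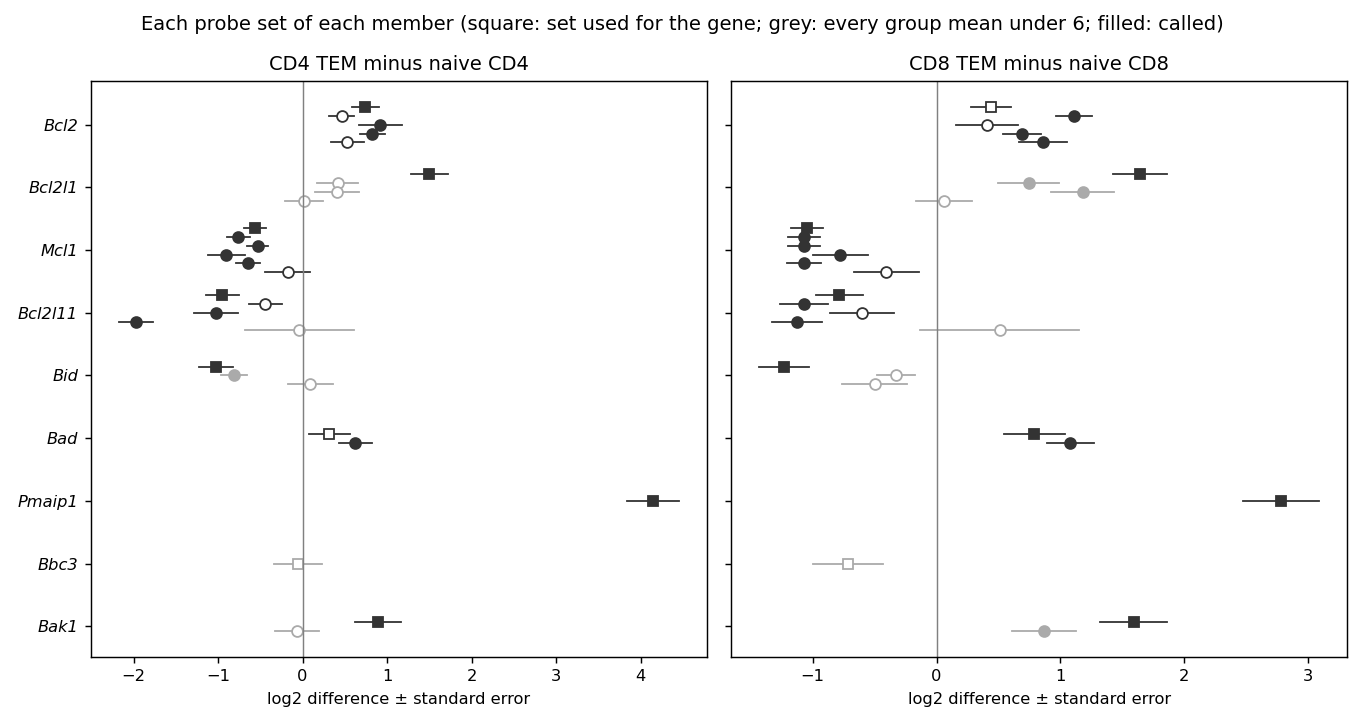
Log2 difference with its standard error (x axis) for each probe set of the 9 members, in CD4+ TEM (left) and CD8+ TEM cells (right) against naïve cells; squares are the sets used for the gene, grey marks sets whose group means are all under 6 and filled symbols are called. All 6 *Mcl1* sets lie left of 0 and all 5 *Bcl2* sets right of it in both panels.

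Of the TEM comparisons, the CD4+ TEM comparison was the one most moved by a single array: 3 of 9 members stayed called without naïve CD4+ replicate 2, and 5 to 7 without any one of the other arrays. In CD8+ TEM cells the count was 8 without naïve CD8+ replicate 2 and 5 to 8 without any one array.

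Whether the change from naïve to TEM cells differed between the subsets was tested directly. By limma 0 of 9 members were called, against 12.5% of all genes, and 2 had an unadjusted p under 0.05. These were *Pmaip1*, whose CD4+ change exceeded its CD8+ change by 1.36 ± 0.43 (95% interval 0.36 to 2.36, adjusted p = 0.0831), and *Mcl1*, at 0.48 ± 0.17 (0.08 to 0.88, adjusted p = 0.12). Without naïve CD8+ replicate 2 the *Pmaip1* value was 1.92 (adjusted p = 0.00472) and *Bbc3* was called at 1.12 (adjusted p = 0.0398). *Pmaip1* was also called without naïve CD8+ replicate 1, at 0.81 (adjusted p = 0.0498). Over all alternatives the adjusted p ran from 0.00472 to 0.211 for *Pmaip1*, from 0.0398 to 0.702 for *Bbc3* and from 0.00734 to 0.351 for *Mcl1*. The largest other difference was -0.70 for *Bak1*, with an interval of -1.58 to 0.17.

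CD4+ memory cells were compared with the same naïve CD4+ cells. *Pmaip1*, *Bcl2l1* and *Bcl2* rose and *Bid* and *Mcl1* fell, so that 5 of 9 members were called, against 23.2% of all genes. Without naïve CD4+ replicate 2 the count was 2, made of *Bcl2* and *Pmaip1*. The TEM and memory comparisons share the naïve CD4+ arrays.

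Set against each other, CD4+ TEM and memory cells differed in 1 of 9 members, against 5.52% of all genes. *Bcl2l11* was lower in TEM cells by -1.13 ± 0.19 (adjusted p = 0.0128), or 2.19-fold. As separate features all 5 of its probe sets were lower, by 1.04 to 1.60 in size, and 4 were called. Without CD4+ TEM replicate 1 the value was -1.13 (adjusted p = 0.0707) and without replicate 2 it was -1.12 (adjusted p = 0.0684), and no member was then called, nor with only these 4 arrays in the fit (adjusted p = 0.103), the highest of a range from 0.00402. *Cd8a*, a CD8+ lineage marker, was also higher in CD4+ TEM cells, by 3.26 (adjusted p = 0.00351), and its part in the result was not tested. On the probe sets used for the genes, the largest other differences were -0.55 for *Pmaip1* (95% interval -1.26 to 0.16) and 0.54 for *Bad* (-0.01 to 1.09). As separate features all 5 *Bcl2* sets were also lower in TEM cells, at -0.10 to -0.72. Of these 1 was called by limma, at -0.72 (adjusted p = 0.041).

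The naïve subsets already differed before culture. Naïve CD8+ cells had more *Pmaip1*, *Bid* and *Bbc3* and less *Bcl2l11* than naïve CD4+ cells, 4 of 9 members against 20.5% of all genes. The log2 difference was 2.18 ± 0.31 (adjusted p = 0.00206) for *Pmaip1*, 0.99 ± 0.20 (adjusted p = 0.01) for *Bid*, 0.97 ± 0.28 (adjusted p = 0.045) for *Bbc3* and -1.06 ± 0.19 (adjusted p = 0.00564) for *Bcl2l11*. As separate features all 5 *Bcl2l11* sets were lower in naïve CD8+ cells and 3 were called. The second brightest of them differed by only -0.10 (limma, adjusted p = 0.801). Of 3 *Bid* sets, 2 were higher and called, and 1 differed by -0.03. The call of *Bbc3*, whose group means were all below 6, held under 7 of 18 alternatives. Settings that lost it included every probe set a feature, quantile normalization, only the groups compared and the replicate block. For each of the 4 members, both naïve CD8+ arrays lay on one side of both naïve CD4+ arrays. All 4 remained called without naïve CD8+ replicate 2, at 2.73 for *Pmaip1*, 0.99 for *Bid*, 1.42 for *Bbc3* and -0.86 for *Bcl2l11*. *Bcl2* was not among them on its brightest probe set (-0.20, adjusted p = 0.455), but its other 4 sets were called lower in naïve CD8+ cells when tested as features, by -0.81 to -1.05. *Bcl2* was called at -0.81 with the mean of all sets (adjusted p = 0.00311) and at -1.01 with the variation filter (adjusted p = 0.0051), in a range of 0.00311 to 0.861. Without naïve CD4+ replicate 1 the count was 2, with *Bid* at 0.85 (adjusted p = 0.0722, in a range of 0.00474 to 0.0722). The *Bbc3* call was lost without any one array of the naïve CD4+, CD4+ TEM and CD8+ TEM pairs or without naïve CD8+ replicate 1, at 0.0707 to 0.198, in a range from 0.00622 to 0.198.

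After culture the TEM groups differed in 2 of 9 members, against 5.72% of all genes. *Mcl1* (-0.66 ± 0.12, adjusted p = 0.0229) and *Bcl2l11* (-0.90 ± 0.19, adjusted p = 0.033) were lower in CD8+ than in CD4+ TEM cells. As separate features all 6 *Mcl1* sets were lower and 3 were called. All 5 *Bcl2l11* sets were lower, at -0.05 to -0.90, and 1 was called. The *Mcl1* call was lost without _s_at and _x_at probe sets, and that of *Bcl2l11* with the mean of all probe sets or the replicate block. Neither was called without any one of the 4 arrays compared, at 0.0926 to 0.159 for *Mcl1* and 0.127 to 0.186 for *Bcl2l11*, and *Bcl2l11* was also lost without either naïve CD4+ array, at 0.0609. Over all alternatives the adjusted p ran from 0.000505 to 0.159 for *Mcl1* and from 0.013 to 0.221 for *Bcl2l11*. *Bid*, higher by 0.78 (adjusted p = 0.0622, in a range of 0.0315 to 0.278), was called at 0.0315 without either memory array. *Pmaip1*, higher by 0.82 (adjusted p = 0.179, in a range of 0.0172 to 0.466), was called at 0.0172 without either naïve CD8+ array. *Bcl2*, lower by -0.50 (adjusted p = 0.107), was called with the mean of all probe sets (-0.80, adjusted p = 0.0105) and with the intensity trend (adjusted p = 0.0272), in a range of 0.0105 to 0.404. All 5 *Bcl2* sets were lower in CD8+ TEM cells and 2 were called, at -1.49 (adjusted p = 0.0185) and -1.19 (adjusted p = 0.00606). The count without 1 array ran from 0 to 3.

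Members whose group means span at least 2 log2 units were *Bcl2l11*, *Bid* and *Pmaip1*, and the genes most like each of them over the 10 arrays were sought among 5007. For *Bcl2l11* these were *Nrip1*, *Gucy1a1* and *Pdlim4* (Pearson r of 0.965, 0.958 and 0.956). For *Bid* they were *Prdm11*, *Qtrt2* and *Scaf4* (0.985, 0.979 and 0.977), and for *Pmaip1* they were *Gbp3*, *Ube2t* and *Nfkb2* (0.991, 0.99 and 0.986). These values describe 10 arrays in 5 groups, and the difference between naïve and cultured cells enters each of them.

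The counts for other lists are read against the 26.5% of all genes called in CD4+ TEM and the 38.1% called in CD8+ TEM cells. Of 15 other BCL-2 family genes 11 were measured. In CD4+ TEM cells 3 rose and none fell, a share near that of all genes, and in CD8+ TEM cells 6 rose and none fell, with median changes of 0.26 and 0.73. *Bnip3*, a mitochondrial BH3-like protein of the hypoxia response, rose from 8.60 and 8.67 to 13.08 and 13.09 in CD4+ cells (4.45 ± 0.14, adjusted p = 6.24e-07). In CD8+ cells it rose from 7.77 and 8.08 to 13.00 and 12.95 (5.05 ± 0.14, adjusted p = 3.39e-07). *Bcl2l2*, which encodes the protective BCL-W, rose by 3.92 (adjusted p = 1.45e-05) and 3.46 (adjusted p = 1.81e-05), but this is 1 of 4 probe sets and the others were higher by 0.33 to 0.79 only. *Bcl2l14* rose by 0.86 in CD4+ (adjusted p = 0.0163) and by 2.81 in CD8+ TEM cells (adjusted p = 2.24e-05), from 4.20 and 3.95 to 6.79 and 6.97 in the latter, and the CD4+ call was lost without naïve CD4+ replicate 2 or either CD4+ TEM array, in a range of 0.000557 to 0.113. *Bik*, a BH3-only gene, rose in CD8+ TEM cells by 2.01 (adjusted p = 0.00378). Without naïve CD8+ replicate 2 the CD8+ changes of *Bnip3*, *Bcl2l2*, *Bcl2l14* and *Bik* were 5.21, 3.80, 2.68 and 2.63, and all remained called.

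**Figure D4:**
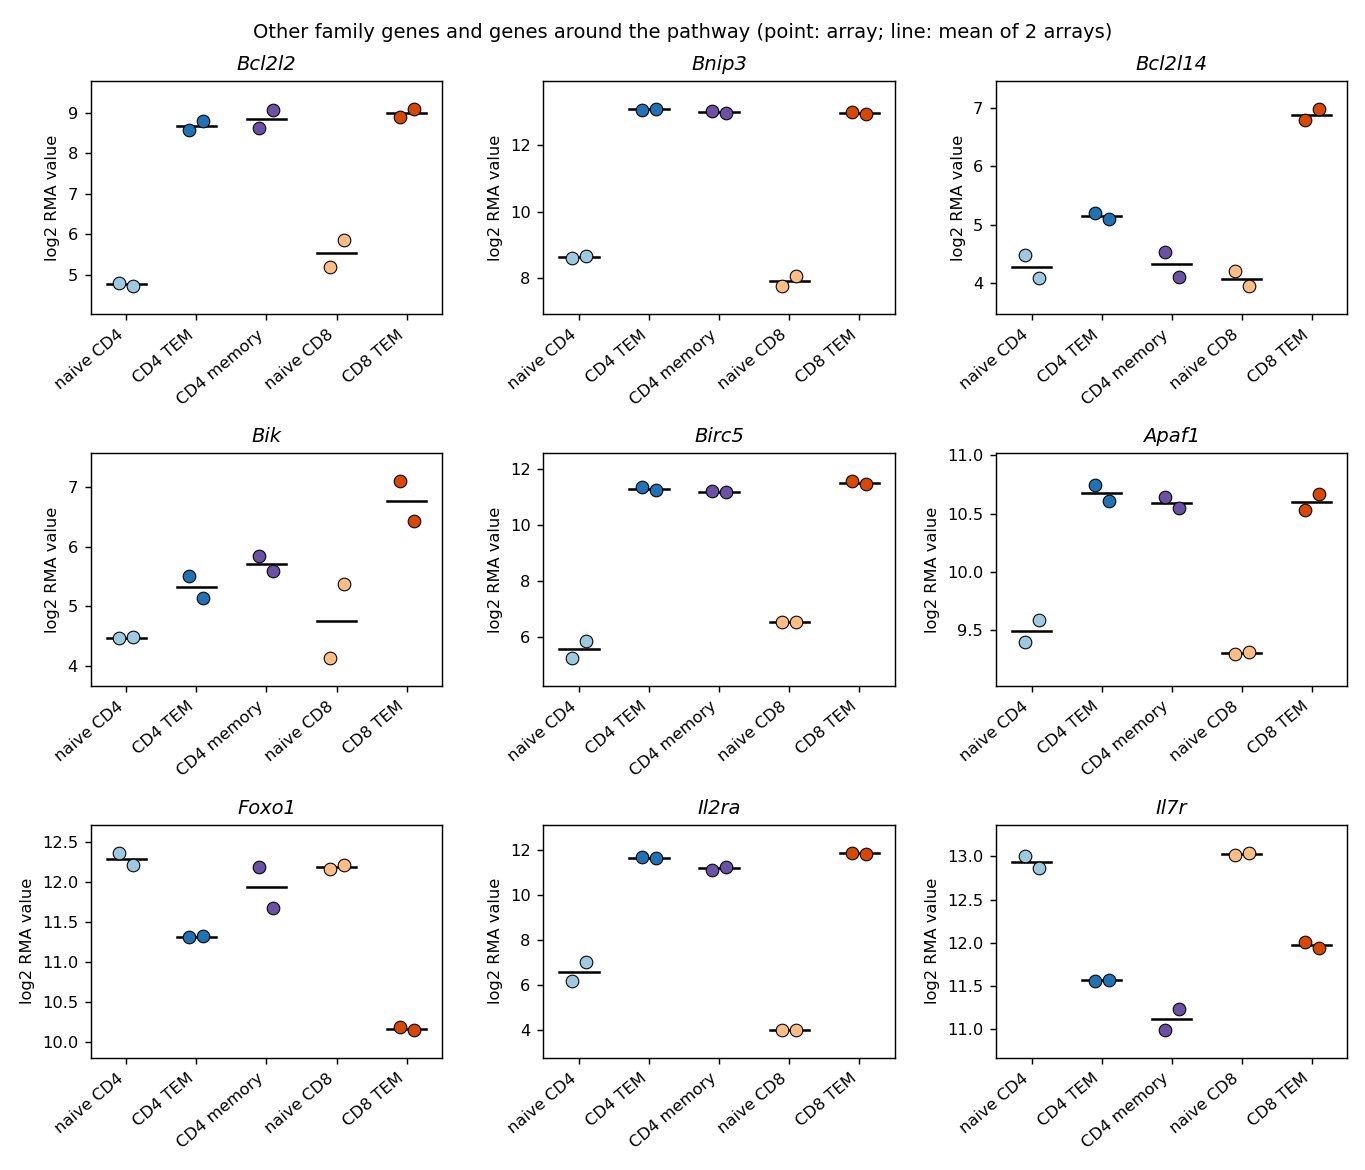
Log2 RMA value (y axis, a separate scale in each panel that does not start at 0) of 9 genes around the members on the 10 arrays, by group; points are arrays and lines the mean of 2. *Bnip3* and *Birc5* lie apart in naïve and cultured cells, and *Bcl2l14* is highest in CD8+ TEM cells, at 6.79 and 6.97.

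Downstream of the family, 15 genes of the apoptosome, the caspases and their inhibitors were measured, and 4 rose and 1 fell in CD4+ TEM cells, against 5 and 3 in CD8+ TEM cells, beside 26.5% and 38.1% of all genes. *Birc5*, which encodes survivin and also serves cell division, rose by 5.73 (adjusted p = 7.16e-07) and 4.99 (adjusted p = 1.15e-06). *Apaf1*, the scaffold of the apoptosome, rose by 1.18 (adjusted p = 0.000409) and 1.29 (adjusted p = 0.000153). *Htra2*, a mitochondrial protease, rose by 2.32 (adjusted p = 0.000375) and 1.01 (adjusted p = 0.0168), the latter lost without naïve CD8+ replicate 1 or CD8+ TEM replicate 2, in a range of 0.000586 to 0.104. *Cycs*, cytochrome c, rose in CD8+ cells by 1.15 (adjusted p = 0.000277) and was not called in CD4+ cells, at 0.09. Its other probe sets changed by 0.67, 1.10 and -1.17 in CD4+ and by 1.67, 2.02 and -0.48 in CD8+ cells. With the variation filter the CD4+ value was 0.67 and was called by limma (adjusted p = 0.0255). *Casp6* fell in CD4+ cells by 0.77 (adjusted p = 0.043). The *Casp6* call was lost without either naïve CD4+ array, CD4+ TEM replicate 1 or either CD8+ TEM array and held under 11 of 19 alternatives, in a range of 0.00681 to 0.241. Of 10 mitochondrial partners 3 rose in CD4+ cells, near the share of all genes, while 5 rose and 1 fell in CD8+ cells. *Mtch2*, a partner of BID at the membrane, rose by 0.84 (adjusted p = 0.00499) and 2.10 (adjusted p = 2.4e-05), and with the mean of its probe sets neither was called. *Vdac2*, which holds BAK at the membrane, rose by 0.79 (adjusted p = 0.00744) and 0.97 (adjusted p = 0.00165), the former lost without naïve CD4+ replicate 2, in a range of 0.000454 to 0.0534. In CD8+ cells *Fis1* (1.56, adjusted p = 0.00134) and *Vdac3* (1.23, adjusted p = 0.000265) rose too, and *Vdac1* rose by 0.53 in CD4+ (adjusted p = 0.0166) and by 0.50 in CD8+ cells (adjusted p = 0.0155). The brightest set of *Vdac1*, used here, read 13.47 to 14.18, and 1 of its 4 other sets changed by 1.65 and 2.49. Its CD4+ call was lost without either naïve CD4+ array or CD4+ TEM replicate 1, in a range of 6.04e-05 to 0.101, and its CD8+ call without naïve CD8+ replicate 1 or either CD8+ TEM array, in a range of 5.06e-06 to 0.0851. Without naïve CD8+ replicate 2 every CD8+ call named here remained.

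The shares of all genes called, 26.5% in CD4+ and 38.1% in CD8+ TEM cells, again stand beside the counts that follow. Upstream, 9 of 10 transcription factors and stress sensors were measured, of which 2 rose and 1 fell in CD4+ and 3 rose and 3 fell in CD8+ TEM cells. *Foxo1*, a known activator of *Bcl2l11*, fell from 12.36 and 12.21 to 11.31 and 11.32 in CD4+ cells (-0.97 ± 0.18, adjusted p = 0.00472). In CD8+ cells it fell from 12.16 and 12.21 to 10.18 and 10.15 (-2.02 ± 0.18, adjusted p = 5.63e-05). *E2f1* rose by 3.72 (adjusted p = 4.48e-05) and 4.12 (adjusted p = 1.66e-05), and *Myc* by 0.96 (adjusted p = 0.000704) and 0.58 (adjusted p = 0.00573). *Ddit3*, which encodes the stress factor CHOP, fell in CD8+ cells by 1.43 (adjusted p = 0.00142). *Atf4*, another stress factor, fell in CD8+ cells by 1.03 (adjusted p = 0.0145), a call lost without either CD8+ TEM array, with the mean of its probe sets and with only the groups compared, in a range of 0.000667 to 0.0958. Of 6 ligases and deubiquitinases of MCL1, 1 rose in CD4+ and 2 fell in CD8+ TEM cells. *Fbxw7* rose in CD4+ cells by 1.05 (adjusted p = 0.00494) and fell in CD8+ cells by 1.32 (adjusted p = 0.000912), and *Huwe1* fell in CD8+ cells by 1.79 (adjusted p = 2.95e-05). With the mean of its probe sets the CD4+ value of *Fbxw7* was 0.57 (adjusted p = 0.104, the highest of a range from 0.00344). The other *Fbxw7* set changed by only 0.10 in CD4+ and -0.18 in CD8+ cells. Of 15 genes of cytokine survival signalling 14 were measured, with 5 higher and 3 lower in CD4+ and 4 higher and 6 lower in CD8+ TEM cells. *Il2ra*, the α chain of the IL-2 receptor, rose by 5.07 (adjusted p = 4.11e-06) and 7.84 (adjusted p = 4.52e-07), with both naïve CD8+ arrays at 4.03, and its other probe set changed by 5.70 and 5.92. *Il2rb*, the β chain, rose by 4.91 (adjusted p = 4.97e-07) and 2.15 (adjusted p = 1.47e-05), and the kinase gene *Jak3* by 2.41 (adjusted p = 3.32e-05) and 1.10 (adjusted p = 0.00141). *Socs3*, a brake on cytokine signals, fell in CD8+ cells by 3.20 (adjusted p = 3.86e-05) and the survival kinase gene *Pim2* by 1.95 (adjusted p = 0.000339). *Il7r*, the receptor chain for IL-7, fell by 1.37 (adjusted p = 0.00018) and 1.06 (adjusted p = 0.000443). The CD8+ calls named for these upstream genes all remained without naïve CD8+ replicate 2, when 3 factors rose and 4 fell and 4 cytokine genes rose and 7 fell, beside 35.2% of all genes.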

How the data were processed

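Members and lists were chosen with earlier results of these data known. The authors normalized Affymetrix signals by RMA in BRB-ArrayTools (version not given), and the deposited table holds log2 values of 45101 probe sets. Platform annotation gave 34945 probe sets 1 symbol, while 932 with several and 9160 unnamed here were left out. A gene (18193 in all) was represented by whichever of its probe sets averaged highest. Groups follow titles and source names, since other label entries, among them a B cell type and a *Foxo1* status that varies inside 2 of the groups, do not match T cells, nor does the design text, which names an edited cell line. That status was not used.

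All 10 arrays entered 1 limma model with a mean per group (R 4.3.3, limma 3.58.1). P-values of each comparison were adjusted by Benjamini-Hochberg across the 18193 genes, with a call at an adjusted p under 0.05. Errors on differences are standard errors. The fit was tested on simulated data. Every member is described. From each other list come up to 4 called genes with the largest change in each TEM comparison and any called for the difference between subsets. Some genes of the other lists are not analysed here, among them *Bcl2a1a*, *Bcl2a1b*, *Bcl2a1d*, *Bnip3l*, *Trp53* and *Il2rg*. Alternatives were other probe set rules, quantile normalization, median centring, filters on dim genes (log2 under 6) and on variation (p of 0.01), an intensity trend, only the groups compared, a replicate block and leaving out each array. Figures used matplotlib 3.10.9. The number of arrays limits precision.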

Additional observations from a re-analysis of the deposited data

Results flagged for a closer look

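When the TEM changes of both subsets were set against each other by limma, 16 of 80 genes of the surrounding lists were called, or 20%, beside 12.5% of all genes. With naïve CD8+ replicate 2 left out, the call remained for 13 of the 16 and was lost for *Dnm1l*, *Foxo1* and *Pim2*, while 13.5% of all genes were called. The values here are the log2 change in CD4+ cells minus that in CD8+ cells. The difference was -1.94 for *Bcl2l14* (adjusted p = 0.00574), which was called under all 20 alternatives. It was -1.06 for *Cycs* (lost without CD8+ TEM replicate 2) and 1.22 for *Birc2*, an inhibitor of apoptosis (lost without naïve CD4+ replicate 2 or any one TEM array). Among mitochondrial partners it was -1.26 for *Mtch2*, -0.88 for *Vdac3* and 0.83 for *Dnm1l*, called under 18 of 20, 13 of 19 and 7 of 20 alternatives. *Mtch2* was lost without CD8+ TEM replicate 2 and with the mean of its probe sets, at -0.06 (limma, adjusted p = 0.908). *Vdac3* was lost without CD4+ TEM replicate 2, naïve CD8+ replicate 1 or any one naïve CD4+ or CD8+ TEM array. *Dnm1l* was lost without any one naïve or TEM array. It was 1.05 for *Foxo1*, called under 10 of 20, and 1.57 for *Ddit3*, called under 12 of 20. Both were lost without any one naïve or TEM array, except that *Ddit3* was called without naïve CD8+ replicate 2. Both were also lost with the mean of their probe sets, and *Foxo1* without _s_at and _x_at sets too. The lowest *Foxo1* value over the alternatives was 0.22. The difference was 2.37 for *Fbxw7*, called under all 20. The *Fbxw7* means were 8.11 in naïve CD4+ and 9.89 in naïve CD8+ cells, and 9.16 in CD4+ TEM and 8.57 in CD8+ TEM cells. On its other probe set the changes were only 0.10 in CD4+ and -0.18 in CD8+ cells. For *Huwe1* the difference was 1.84, called under 19, and 0.39 with the mean of its probe sets (adjusted p = 0.197). Among cytokine genes it was -2.77 for *Il2ra*, 2.76 for *Il2rb* and 2.49 for *Socs3*, each called under all 20. The *Il2ra* value rests on naïve levels, at 4.03 on both CD8+ arrays against 6.17 and 7.04 in CD4+ cells, since the TEM means were 11.68 and 11.87, and on its other probe set the changes were close, at 5.70 and 5.92. It was 1.32 for *Jak3*, 1.49 for *Il15ra* and 1.31 for *Pim2*, called under 18, 10 and 9 of 20. *Jak3* was lost without CD4+ TEM replicate 2 or CD8+ TEM replicate 1, and *Pim2* without any one naïve or TEM array. *Il15ra* was lost without either naïve CD4+ or CD4+ TEM array, naïve CD8+ replicate 1 or CD8+ TEM replicate 1.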

How the results depend on the processing

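Of 1232 member values under alternatives 1142 kept their direction and side of the threshold, 66 lost the call, 24 gained it and none of those called reversed. Leaving out 1 array in turn, members called ranged from 3 to 7 for CD4+ TEM, 5 to 8 for CD8+ TEM, 0 to 2 for the difference between them, 2 to 5 for memory, 0 to 1 for CD4+ TEM against memory, 2 to 4 between naïve subsets and 0 to 3 between TEM groups. With only the groups compared the count was 1 for memory and 0 for CD4+ TEM against memory. The mean of all probe sets gave 2 for memory, and an intensity trend 1 for the difference. Between TEM groups 1 was called without _s_at and _x_at probe sets, 1 of 6 left by the variation filter and 1 with the replicate block. The cause was not tested. Correlations of the replicate differences between groups ran from -0.036 to 0.029. With 1 difference per group, these cannot show whether arrays with the same replicate number belong together. With the replicate block the counts were 7, 7, 0, 4, 1, 3 and 1, in the order above. Of 2142 values for other list genes 10 reversed. With the mean of all probe sets *Dnm1l* was -0.999 in CD4+ TEM cells and -0.16 for the difference, *Ddit3* -1.65 and -0.29, and *Huwe1* -0.43 in CD4+ TEM cells. The variation filter gave *Dnm1l* -1.58 and -0.62. Without _s_at and _x_at sets the *Vdac1* difference was -0.84. Without naïve CD8+ replicate 2 the difference was 1.93 for *Fosb* and 1.78 for *Nr4a1*, and without replicate 1 it was -4.69 and -3.52. Over all genes, 4825, 6926, 2278, 4227, 1005, 3733 and 1041 were called. With each of 34945 probe sets a feature, 8627, 12093, 7443, 6071 and 1787 were called for CD4+ TEM, CD8+ TEM, memory, naïve subsets and TEM groups. With only the groups compared 223 were for CD4+ TEM against memory. Without 1 array the lowest counts were 3185, 982, 2575, 490, 2109 and 219 for CD4+ TEM (naïve CD4+ replicate 2), the difference (CD8+ TEM replicate 2), memory (naïve CD4+ replicate 2), CD4+ TEM against memory (CD4+ TEM replicate 1), naïve subsets (naïve CD4+ replicate 2) and TEM groups (CD8+ TEM replicate 2).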

Other observations

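Immediate early and stress genes are known to respond within minutes to handling and stimulation. Of 16 measured, 7 fell and 2 rose in CD4+ TEM cells and 4 fell and 2 rose in CD8+ TEM cells, beside 26.5% and 38.1% of all genes called. In CD8+ cells 13 fell and 2 rose when naïve CD8+ replicate 2 was left out, beside 35.2% of all genes. *Fos* read 12.88 and 12.86 in naïve CD4+, 5.08 and 4.29 in CD4+ TEM and 6.92 and 8.33 in CD4+ memory cells. The naïve CD8+ arrays read 13.06 and 7.09, and the CD8+ TEM arrays 4.12 and 4.72. The CD8+ difference of *Fos* was -5.65 (adjusted p = 0.0213), and it was -2.66 without naïve CD8+ replicate 1 and -8.64 without replicate 2. That call was lost without either CD8+ TEM array and with only the groups compared, in a range of 0.000107 to 0.0994. *Atf3*, a stress factor, rose in CD4+ cells from 4.40 and 4.04 to 8.54 and 8.49 (4.29 ± 0.62, adjusted p = 0.00135). In CD8+ cells it rose from 6.65 and 4.30 to 9.32 and 9.14 (3.76 ± 0.62, adjusted p = 0.00164), and by 2.58 without naïve CD8+ replicate 2. In CD4+ cells *Fosb* fell by 5.42 (adjusted p = 0.0467, in a range of 1.93e-05 to 0.163) and *Nr4a1* fell by 4.53 (adjusted p = 0.0399, in a range of 1.49e-05 to 0.153), each called under 12 of 20 alternatives and lost without any one array other than the naïve CD8+ arrays. In CD8+ cells these differed by -4.04 (adjusted p = 0.0983) and -3.66 (adjusted p = 0.0656) and were called at -7.35 and -6.31 with naïve CD8+ replicate 2 left out. *Egr1* fell by 2.27 and 3.23 in CD4+ and CD8+ TEM cells (adjusted p = 0.000819 and 7.4e-05) and *Zfp36* by 3.35 and 3.97 (adjusted p = 0.000293 and 6.98e-05), all called under 20 of 20. The naïve CD8+ replicates differed in *Fos*, *Atf3*, *Pmaip1* and *Bbc3*, replicate 1 reading higher in each. Over all genes 780 differed by at least 1 log2 unit between these replicates, and so did 1 member, *Pmaip1*. Of the other members, *Mcl1*, *Bcl2l11* and *Bid* also read higher on replicate 1, and *Bcl2*, *Bcl2l1*, *Bad* and *Bak1* on replicate 2. The relation of the immediate early and stress genes to the BCL-2 family members was not tested.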
